A study of Mus musculus with 6 samples.

Results

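The genes described here encode core subunits of the Polycomb repressive complexes. They are the 10 genes Ezh1, Ezh2, Eed, Suz12, Jarid2, Bmi1, Ring1, Rnf2, Cbx7 and Cbx8, found by symbol among the 34199 gene symbols that were counted, and all 10 passed the filter on low counts that left 12460 genes for testing. Their transcripts were measured by bulk RNA-seq in HOXA9-immortalized GMPs (iGMPs), mouse granulocyte-macrophage progenitors from bone marrow of the C57Bl/6 strain. The cells carry a Lysozyme-GFP reporter and a HOXA9 transcription factor fused to a mutant estrogen receptor domain. All cells grew in medium with stem cell factor, and the fusion protein kept them self-renewing as long as estradiol was present. In CAF-1 OFF, 500 µM IPTG was used for 24 h to induce a hairpin RNA directed at Chaf1b, whose product is part of the CAF-1 histone chaperone, with estradiol kept at 150 ng/ml. Control cells received IPTG for 24 h, also with estradiol at 150 ng/ml. In HOXA9 OFF estradiol was removed for 24 h, after which these progenitors differentiate into neutrophils. Each of the 3 groups had 2 libraries. The study worked with clonal lines, but the labels name neither the clones nor the hairpin of the control cells, and do not say whether HOXA9 OFF cells had IPTG. The study speaks of independent sub-clones for RNA-seq at a later time and of biological samples in general, without tying either to the libraries used here, so p-values measure the spread between these libraries, which may be technical.

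Polycomb proteins keep developmental genes silent. Polycomb repressive complex 2 (PRC2) methylates histone H3 at K27 through a catalytic subunit, EZH2 or EZH1, that needs EED and SUZ12, and accessory proteins such as JARID2 help to bring it to chromatin. Polycomb repressive complex 1 (PRC1) ubiquitinates histone H2A through RING1 or RNF2 paired with a PCGF protein such as BMI1, and its canonical form carries a CBX protein that reads the methyl mark. In blood formation, Bmi1 is known for its need in stem cell self-renewal, Ezh2 is typically highest in dividing progenitors, and Ezh1 is the form kept in cells that divide less.

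Ezh2, Ezh1 and Bmi1 were the 3 genes of the 10 with an adjusted p under 0.05 in at least 1 comparison, so the 150 bases just before their RefSeq starts are shown (GRCm38.p6, sense strand of each gene). Capitals mark CCAAT or its reverse complement ATTGG.
Ezh2, chr6:47595031-47595180, minus strand: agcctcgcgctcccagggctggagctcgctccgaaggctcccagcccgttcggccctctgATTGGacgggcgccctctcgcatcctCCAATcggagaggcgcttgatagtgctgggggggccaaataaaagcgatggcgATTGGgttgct
Ezh1, chr11:101226464-101226613, minus strand: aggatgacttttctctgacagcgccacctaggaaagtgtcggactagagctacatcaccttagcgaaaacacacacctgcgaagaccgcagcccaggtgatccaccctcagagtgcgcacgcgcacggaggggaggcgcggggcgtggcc
Bmi1, chr2:18676868-18677017, plus strand: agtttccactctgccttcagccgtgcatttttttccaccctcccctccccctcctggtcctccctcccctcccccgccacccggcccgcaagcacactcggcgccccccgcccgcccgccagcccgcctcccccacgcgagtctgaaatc

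The CCAAT box occurred 3 times in the Ezh2 window and was not found in those of Ezh1 and Bmi1. It was present in 24.5% of 32851 RefSeq promoter windows of this length on either strand, and among the 10 genes in those of Ezh2 and Suz12. The E2F words TTTCCCGC, TTTCGCGC, TTTGCCGC and TTTGGCGC (1.24% of windows held any of them) and the ETS word CCGGAAGT (2.4%) were found in 0 of the windows of the 10 genes, again on both strands. All 3 windows shown were rich in CpG, with 13 CpG in Ezh2, 12 in Ezh1 and 12 in Bmi1 beside a median of 4 over all windows. These letter matches describe the windows and do not show binding.

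The libraries held between 16773560 and 25170898 reads assigned to genes, and 3 counts corresponded to 0.119 to 0.179 CPM (counts scaled to a common library size). The targeted gene Chaf1b was at 89.9 and 105.1 CPM in control, 17.8 and 12.1 in CAF-1 OFF and 64.6 and 61.3 in HOXA9 OFF. Its log2 fold change against control was −2.71 ± 0.20 (SE, n = 2 per group, edgeR quasi-likelihood adjusted p = 0.0198) after knockdown, while HOXA9 OFF gave −0.63 ± 0.18 (edgeR adjusted p = 0.0396). The knockdown value kept its size but missed an adjusted p of 0.05 with the replicate block (log2 fold change −2.72, edgeR adjusted p = 0.0562), without CAF-1 OFF replicate 2 (−2.44, edgeR adjusted p = 0.0505) and without control replicate 1 (−2.81, edgeR adjusted p = 0.115) or 2 (−2.58, edgeR adjusted p = 0.115). The HOXA9 OFF call of Chaf1b was lost with the block (edgeR adjusted p = 0.0566), without control replicate 1 (0.0747) or 2 (0.201), without HOXA9 OFF replicate 1 (0.132) or 2 (0.159), and at the threshold of a fold of 2 and an FDR under 0.01. Its partner Chaf1a was at 100.2 to 118 CPM in all 6 libraries. Of 7 myeloid progenitor markers, all were detected in every library. Their summed level ranged from 8374 to 11280 CPM in control, 12520 to 13550 in CAF-1 OFF and 9682 to 12540 in HOXA9 OFF. Mpo was the largest part of this sum in every library. It was at 6437 and 4109 CPM in control, 7928 and 7264 in CAF-1 OFF and 8546 and 6673 in HOXA9 OFF. Against control, 3 of 7 were called lower in HOXA9 OFF (Kit, Cd34 and Flt3). Prtn3, Mpo and Elane lay above control there, by log2 fold changes of 0.59, 0.53 and 0.76. These were not called (edgeR adjusted p = 0.061, 0.112 and 0.131), and Cebpa differed by 0.03. Markers of maturing neutrophils summed to 124 to 188 CPM in control, 576 to 853 in CAF-1 OFF and 582 to 992 in HOXA9 OFF, and those of monocytes or macrophages to 45.3 to 80.1, 134 to 190 and 571 to 593. Most of the neutrophil sum in CAF-1 OFF was Mmp8, at 332.3 and 630.2 CPM against 56.6 and 62 in HOXA9 OFF, and of CAF-1 OFF against HOXA9 OFF 5 of 7 neutrophil markers were called lower and 1 (Mmp8) higher. In HOXA9 OFF against control, 6 of 7 neutrophil and 5 of 5 monocyte markers were called higher. After Chaf1b knockdown edgeR called 0 of either, with 5 of 7 and 2 of 5 at an unadjusted p under 0.05, whereas the DESeq2 Wald and edgeR exact tests each called 4 neutrophil and 2 monocyte markers. Megakaryocyte markers summed to 24.2 to 27.2 CPM in control, 35.2 to 73.4 in CAF-1 OFF and 65.1 to 76.4 in HOXA9 OFF, where Itga2b was called 3.49-fold higher (edgeR adjusted p = 0.00847), and Pf4 was 4.27-fold above control in CAF-1 OFF without being called (edgeR adjusted p = 0.199). Erythroid markers summed to at most 4.73 CPM. The T cell markers Cd3e, Cd3g and Cd8a were at 0 in every library, and 3 stroma markers together reached at most 0.506 CPM. In bulk RNA, a change in the number of cells of a type and a change in RNA per cell cannot be told apart, and what part the levels of these markers have in the values below was not tested.

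Calls required a 1.5-fold difference or more, together with an edgeR quasi-likelihood adjusted p (Benjamini-Hochberg over all 12460 genes) under 0.05. After 24 h of Chaf1b knockdown, 0 of the 10 Polycomb genes were called, beside 4 of all 12460 genes (0.0321%). After 24 h without estradiol, Bmi1 fell to 0.639 of its control level, and Ezh2 was 0.745 of control, short of 1.5-fold, at an adjusted p that was under the cutoff only when both libraries of each of these groups were fitted and no replicate block was used. Ezh1 was called between the 2 conditions, with its CAF-1 OFF libraries below control and its HOXA9 OFF libraries above. Eed, Suz12, Jarid2, Ring1, Rnf2, Cbx7 and Cbx8 were not called in any of the 3 comparisons. Over all genes, 22.0% were called in HOXA9 OFF against control and 22.1% between the 2 conditions.

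**Figure D1:**
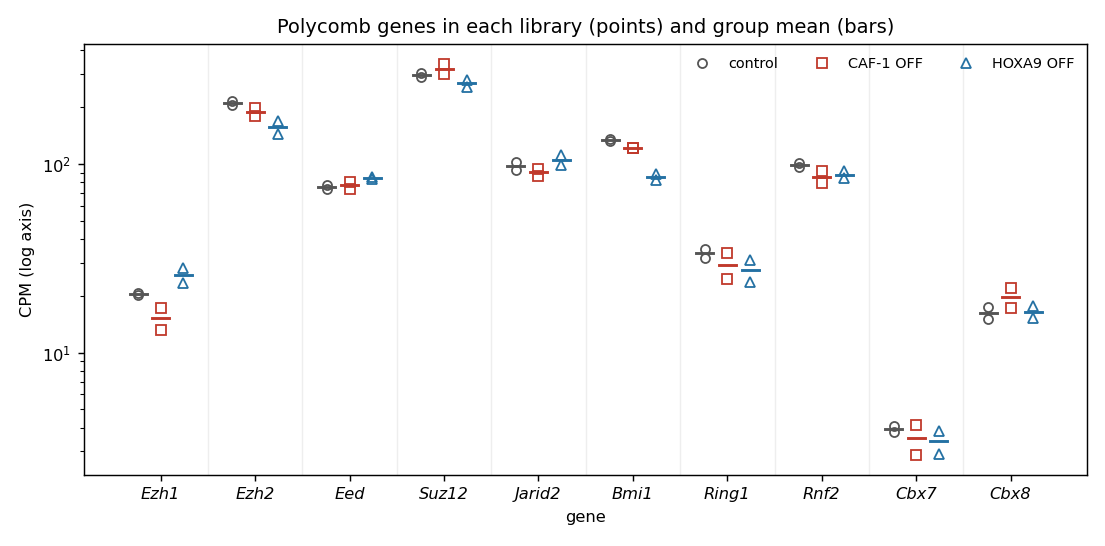
CPM of the 10 Polycomb genes on a log axis, 1 point per library and a bar at the mean of 2 libraries, for control, CAF-1 OFF and HOXA9 OFF. Both HOXA9 OFF points of Bmi1 (82.7 and 88.5 CPM) lie under the other 4, and the Ezh1 points are lowest in CAF-1 OFF and highest in HOXA9 OFF.

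Ezh2 encodes the more active methyltransferase of PRC2 and lies at chr6:47480273-47545340 on the minus strand (NCBIM37, the assembly that mm9 names, as for all gene positions here). It was at 205.6 and 215.4 CPM in control, 180.1 and 199 in CAF-1 OFF and 168.7 and 144.9 in HOXA9 OFF. The 3 groups did not overlap and were ordered control, CAF-1 OFF, HOXA9 OFF. Against control, the log2 fold change of Ezh2 was −0.42 ± 0.12 in HOXA9 OFF (edgeR adjusted p = 0.0332), whereas CAF-1 OFF gave −0.15 ± 0.12 (edgeR adjusted p = 0.703, 95% interval −0.42 to 0.12). The HOXA9 OFF value missed an adjusted p of 0.05 with the replicate number as a block (edgeR adjusted p = 0.0548), without control replicate 1 (0.0949) or 2 (0.164) and without HOXA9 OFF replicate 1 (0.0609) or 2 (0.206). An antisense lincRNA, Gm17629, shares 174 exonic bases with Ezh2 (2.81% of its exon length), and without a stated strand setting reads from these bases cannot be assigned to either gene.

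Ezh1 encodes the alternative, less active methyltransferase (chr11:101052429-101087777, minus strand). Its level was 20.8 and 20.2 CPM in control, 13.2 and 17.2 in CAF-1 OFF and 23.5 and 28.1 in HOXA9 OFF. Both CAF-1 OFF libraries were below both controls and both HOXA9 OFF libraries above them. Neither departure from control passed the test, as CAF-1 OFF gave a log2 fold change of −0.43 ± 0.18 (edgeR unadjusted p = 0.0474, adjusted p = 0.456) and HOXA9 OFF of 0.33 ± 0.18 (edgeR adjusted p = 0.203). Of CAF-1 OFF against HOXA9 OFF, the log2 fold change was −0.76 ± 0.18 (95% interval −1.18 to −0.34, edgeR adjusted p = 0.0204), a level 1.69-fold lower in CAF-1 OFF. This call was lost without CAF-1 OFF replicate 1 (log2 fold change −0.58, edgeR adjusted p = 0.0697) and without HOXA9 OFF replicate 2 (−0.63, edgeR adjusted p = 0.106).

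The ratio of Ezh2 counts to Ezh1 counts within a library does not depend on how libraries are scaled. It was 9.89 and 10.7 in control, 13.6 and 11.6 in CAF-1 OFF and 7.18 and 5.16 in HOXA9 OFF. The 3 groups did not overlap, and the mean ratio was 12.6 in CAF-1 OFF against 6.17 in HOXA9 OFF, with control at 10.3 between them. With 2 libraries against 2, a two-sided exact permutation test cannot go below p = 0.333, the value that all 3 pairs of groups gave. Per kilobase of exon, Ezh2 exceeded Ezh1 by 6.2-fold to 16.3-fold in the 6 libraries.

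The other PRC2 genes moved less. Eed, the subunit that binds the methyl mark (chr7:97103166-97129493, minus strand), was at 73.4 and 77 CPM in control, 80.5 and 74 in CAF-1 OFF and 82.8 and 84.9 in HOXA9 OFF. HOXA9 OFF was the higher group by a log2 fold change of 0.16 ± 0.10 (edgeR adjusted p = 0.285). Suz12, the scaffold of the complex (chr11:79806608-79847625, plus strand), was at 302.6 and 288.4 CPM in control, 299.7 and 340.5 in CAF-1 OFF and 279.8 and 256.4 in HOXA9 OFF. The control and CAF-1 OFF values of Suz12 overlapped, and both HOXA9 OFF values lay below them, with a log2 fold change of −0.14 ± 0.11 against control (edgeR adjusted p = 0.373). Suz12 shares 178 exonic bases (3.6%) with the antisense lincRNA Gm16706. Jarid2, which helps recruit PRC2 (chr13:44824843-45017012, plus strand), was at 102.2 and 93.4 CPM in control, 86.6 and 94.3 in CAF-1 OFF and 111.2 and 98.2 in HOXA9 OFF, and control overlapped both other groups.

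Bmi1 encodes the PCGF protein best known from canonical PRC1 (chr2:18598645-18608256, plus strand). It was at 132.9 and 134.9 CPM in control, 121.7 and 121.9 in CAF-1 OFF and 82.7 and 88.5 in HOXA9 OFF. Libraries of a group lay close together, and the 3 groups did not overlap. Against control, HOXA9 OFF was the group where Bmi1 fell, with a log2 fold change of −0.65 ± 0.10 (95% interval −0.87 to −0.42, edgeR adjusted p = 0.00414), a 1.56-fold lower level. It was called lower in 14 of 14 other fits at the same cutoffs, with adjusted p up to 0.0421. The CAF-1 OFF difference from control was −0.14 ± 0.09 (edgeR adjusted p = 0.665, 95% interval −0.36 to 0.09). Set directly against HOXA9 OFF, CAF-1 OFF had the higher Bmi1 level by 0.51 ± 0.10 on the log2 scale (edgeR adjusted p = 0.0097), or 1.42-fold, which is short of the fold required for a call.

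The ubiquitin ligase subunits differed little. Ring1 (chr17:34157737-34161625, minus strand) was at 31.9 and 35.3 CPM in control, 33.7 and 24.6 in CAF-1 OFF and 31.1 and 23.7 in HOXA9 OFF, so that the 2 libraries within either condition lay further apart than the group means. Rnf2, the ligase subunit with the higher level per kilobase here (chr1:153316536-153347953, minus strand), was at 101.7 and 96.1 CPM in control, 92.1 and 79.2 in CAF-1 OFF and 91.4 and 84 in HOXA9 OFF. Both Rnf2 values of either condition were below both controls, by log2 fold changes of −0.21 ± 0.12 after knockdown (edgeR adjusted p = 0.587) and −0.17 ± 0.12 after estradiol removal (edgeR adjusted p = 0.305).

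Of the CBX readers of the methyl mark, Cbx8 (chr11:118897619-118902283, minus strand) was at 15.2 and 17.4 CPM in control, 22.1 and 17.2 in CAF-1 OFF and 17.6 and 15.3 in HOXA9 OFF. All 3 groups of Cbx8 overlapped. Cbx7 (chr15:79746237-79801549, minus strand), a reader linked to self-renewal of stem cells, had the lowest level of the 10 genes, at 3.77 and 4.06 CPM in control, 2.86 and 4.15 in CAF-1 OFF and 3.86 and 2.91 in HOXA9 OFF. These rest on 48 to 96 counts per library, and the 95% interval of its log2 fold change against control spanned −0.90 to 0.58 for CAF-1 OFF and −0.95 to 0.54 for HOXA9 OFF, wide enough to hold a 1.5-fold fall in both.

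The first comparison asked what the Polycomb genes did at the start of CAF-1 loss. By edgeR, 0 of the 10 were called, and 1 of 10 (Ezh1) had an unadjusted p under 0.05. The background was low, since 4 of 12460 genes were called (0.0321%, with 0.0241% higher and 0.00803% lower), although 1330 had an unadjusted p under 0.05. The DESeq2 Wald test called 192 genes and the edgeR exact test 236, again with 0 of the 10. The median log2 fold change of the 10 was −0.14 beside 0.00 over all genes tested, and 4 of 10 genes had groups that did not overlap (Ezh1, Ezh2, Bmi1 and Rnf2, all lower in CAF-1 OFF) against 40.1% of all genes. For Eed, Suz12, Jarid2, Ezh2, Bmi1 and Rnf2 the 95% interval lay inside 1.5-fold in both directions, whereas for Ezh1, Ring1, Cbx7 and Cbx8 it reached past it.

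The second comparison followed the same genes in normal differentiation. In HOXA9 OFF against control, 1 of 10 was called (Bmi1, lower), and 2 of 10 had an adjusted p under 0.05 (Bmi1 and Ezh2, the latter not held when a control or HOXA9 OFF library was left out). Over all genes 22.0% were called, 13.0% higher and 8.97% lower, and 29.8% had an adjusted p under 0.05. The 1 call, lower, stood beside that 8.97% of all genes, a share near the background. Scaling by library size alone moved the split of all calls from 1622 higher and 1118 lower to 1434 and 1409, and Bmi1 was called lower with it too. The median log2 fold change of the 10 was −0.16 beside 0.00 over all genes, and 7 of 10 had groups that did not overlap against 71.0% of all genes.

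The third comparison set the 2 conditions against each other. Here 1 of 10 was called (Ezh1, lower in CAF-1 OFF), 2 of 10 had an adjusted p under 0.05 (Ezh1 and Bmi1) and 6 of 10 did not overlap. Over all genes 22.1% were called (9.56% higher and 12.6% lower), 30.3% had an adjusted p under 0.05 and 66.7% did not overlap. With library size alone 1475 genes were called higher and 1334 lower, in place of 1191 and 1564, and Bmi1 was then called too (log2 fold change 0.59 in favour of CAF-1 OFF, edgeR adjusted p = 0.00663). The median of the 10 was 0.07. The comparisons share libraries, so their values for a gene are not independent.

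**Figure D2:**
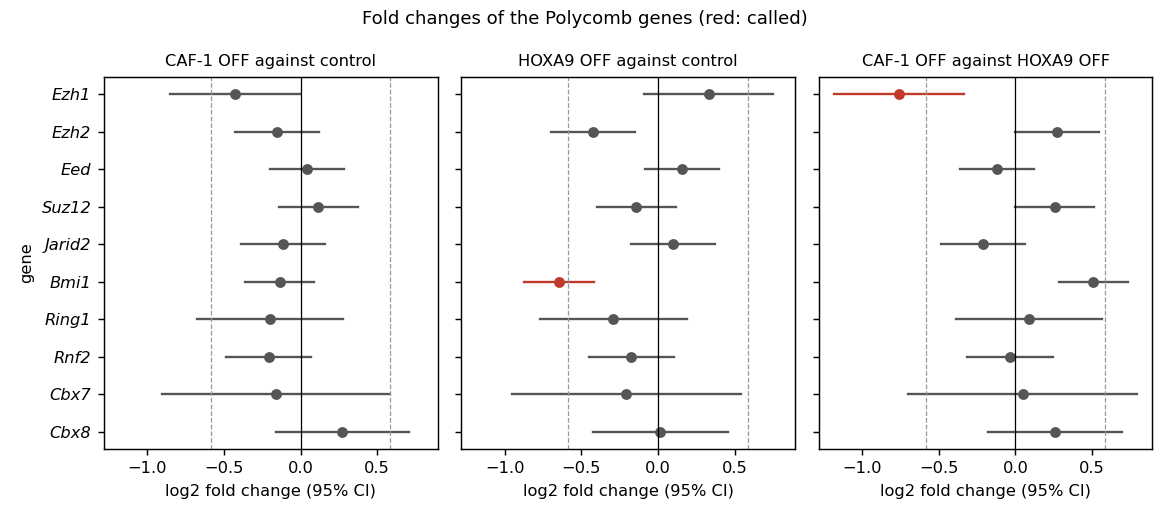
Log2 fold change (point) with its 95% confidence interval (line) for the 10 Polycomb genes in the 3 comparisons, from the edgeR fit, with dashed lines at 1.5-fold. Red marks called genes, which are Bmi1 in HOXA9 OFF against control (−0.65) and Ezh1 in CAF-1 OFF against HOXA9 OFF (−0.76).

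Levels can be compared between genes only per length, here as CPM per kilobase of annotated exon. In control, Suz12 came first at 59.8 ± 2.0 (SD, n = 2), followed by Ezh2 at 34 ± 1.1, Eed at 33.9 ± 1.1, Bmi1 at 33.7 ± 0.36 and Rnf2 at 32.7 ± 1.3. The neighbours from Ezh2 to Rnf2 overlapped and had no order beyond their spread. Ring1 at 10.3 ± 0.75 and Jarid2 at 10.1 ± 0.64 overlapped as well, and Cbx8 at 4.43 ± 0.43, Ezh1 at 2.75 ± 0.06 and Cbx7 at 1.03 ± 0.05 followed without overlap. In HOXA9 OFF the 4 genes that were level with each other in control spread out, and their order per kilobase was Eed (37.8 ± 0.65), Rnf2 (29 ± 1.7), Ezh2 (25.3 ± 2.7) and Bmi1 (21.5 ± 1.0), with no overlap between neighbours. In CAF-1 OFF the order was Eed (34.8 ± 2.1), Bmi1 (30.6 ± 0.04), Ezh2 (30.6 ± 2.2) and Rnf2 (28.3 ± 3.0), where Ezh2 overlapped both Bmi1 and Rnf2. In every group Suz12 was first and Cbx8, Ezh1 and Cbx7 were the last 3 in that order.

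Of 13 further PRC1 genes tested, 4 were called lower in HOXA9 OFF, beside 8.97% of all genes. Of the PCGF proteins, which define the kinds of PRC1, Pcgf5 had the highest level per kilobase in control (62.4 ± 3.6 CPM per kb), ahead of Bmi1 (33.7), Pcgf6 (13.2 ± 1.2), Pcgf3 (9.8 ± 0.35), Pcgf1 (8.13 ± 0.83) and Pcgf2 (3.57 ± 1.5). In CPM, Pcgf5 was below Bmi1 in control (means of 107.3 and 133.9). Their order per kilobase, and the shares below, rest on annotated exon lengths, 1.72 kb for Pcgf5 and 3.97 kb for Bmi1. Whether the reads were counted over these exons is not known. Pcgf2 encodes the closest relative of BMI1, and its level was 8.64 and 16 CPM in control, 17.9 and 10.3 in CAF-1 OFF and 2.99 and 4.67 in HOXA9 OFF. It fell in HOXA9 OFF, with a log2 fold change of −1.68 ± 0.42 (edgeR adjusted p = 0.0249), in the same direction as Bmi1. Pcgf6, a subunit of a variant PRC1, was at 50.5 and 57.4 CPM in control, 58.6 and 55.9 in CAF-1 OFF and 26.3 and 27.2 in HOXA9 OFF, a log2 fold change of −1.01 ± 0.12 there (edgeR adjusted p = 0.00189). As a share of the summed PCGF level per kilobase, Bmi1 made up 25.8% in control, 23.7% in CAF-1 OFF and a lower 19.5% in HOXA9 OFF.

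Of the CBX genes reported here, Cbx2 had the highest level per kilobase in control (7.41 ± 2.3 CPM per kb), then Cbx6 (5.43 ± 1.5), Cbx8 (4.43) and Cbx7 (1.03), and Cbx2, Cbx6 and Cbx8 overlapped with their neighbours in that order. The exons of Cbx6 overlap a same-strand gene, Npcd, over 18.7% of their length, so that its level is uncertain. Cbx2 was at 24.8 and 38.3 CPM in control, 38.1 and 26.1 in CAF-1 OFF and 7.38 and 8.97 in HOXA9 OFF. It fell in HOXA9 OFF, with a log2 fold change of −1.95 ± 0.28 (edgeR adjusted p = 0.00393), and its level per kilobase went from the highest of these CBX genes in control to below Cbx6 and Cbx8 (1.92 ± 0.26 CPM per kb). Cbx8 and Cbx7 were not called beside it, and whether their changes differed from that of Cbx2 was not tested.

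**Figure D3:**
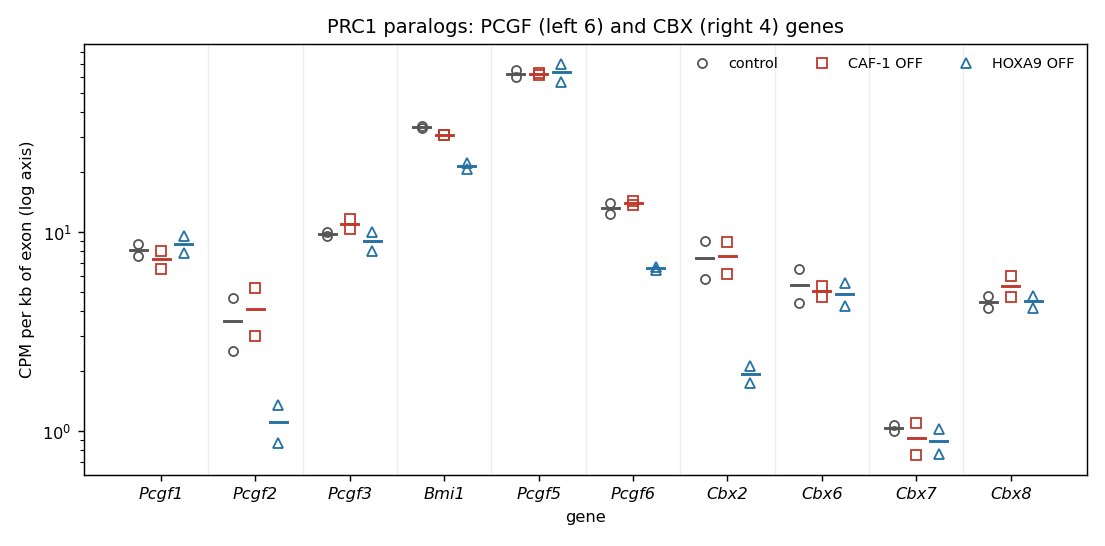
Level of the PCGF genes (left 6) and CBX genes (right 4) in CPM per kilobase of exon on a log axis, 1 point per library and a bar at the group mean. Pcgf2, Bmi1, Pcgf6 and Cbx2 have both HOXA9 OFF points under the other 4 libraries and were called lower against control.

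A wider list of 35 further Polycomb genes (PRC2 accessory subunits, PRC1 paralogs, variant PRC1, the H2A deubiquitinase PR-DUB and the H3K27 demethylases) held 33 tested genes, whereas Scml2 and Asxl3 had 0 counts in every library. Against control, edgeR called 0 of 33 in CAF-1 OFF, beside 0.0321% of all genes, with 2 of 33 at an unadjusted p under 0.05, beside 1330 of 12460 (Scmh1 and Aebp2, named after their values were seen), and the DESeq2 Wald and edgeR exact tests also called 0. In HOXA9 OFF 4 of 33 fell, beside 8.97% of all genes, and 1 rose, beside 13.0%, and the median log2 fold change of the list was −0.07. The genes that fell were Scml4, Cbx2, Pcgf2 and Pcgf6, a number near the share of all genes called lower. All 4 were listed here under PRC1, although Pcgf6 is a subunit of a variant PRC1. The gene that rose was Rybp, 1 of 8 genes listed under variant PRC1, of which 0 were called lower. Set against HOXA9 OFF, CAF-1 OFF had the same 4 of 33 genes called higher, beside 9.56% of all genes, and both comparisons use the HOXA9 OFF libraries.

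Scml4, a member of the SCM family of Polycomb proteins, had the largest change, from 14.5 and 16 CPM in control and 12.2 and 14.7 in CAF-1 OFF to 0.386 and 2.12 in HOXA9 OFF. Its log2 fold change against control was −3.65 ± 0.59 (edgeR adjusted p = 0.00538), resting on 8 and 35 counts in HOXA9 OFF. Rybp, which takes the place of CBX proteins in variant PRC1, was at 9.04 and 6.68 CPM in control, 8.16 and 11.3 in CAF-1 OFF and 15.1 and 13 in HOXA9 OFF, and rose there by 0.84 ± 0.25 on the log2 scale (edgeR adjusted p = 0.0435). The call of Rybp was lost when either control library or either HOXA9 OFF library was left out, with library size alone and with the replicate block. The call of Pcgf2 was lost without control replicate 2 and without HOXA9 OFF replicate 1, and 3 of 33 genes were then called.

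The 7 other PRC2 genes tested, which include accessory subunits, had 0 edgeR calls in each of the 3 comparisons, beside 0.0321%, 22.0% and 22.1% of all genes. E130012A19Rik, named after its values were seen, was called lower in HOXA9 OFF with library size alone and without control replicate 1. Their median log2 fold change was −0.37 in HOXA9 OFF, with 6 of 7 below 0, and −0.15 in CAF-1 OFF, with 5 of 7 below 0. Rbbp4 and Rbbp7 encode histone-binding proteins that PRC2 has in common with other complexes, and RBBP4 is also the small subunit of CAF-1. Rbbp4 was at 624.6 and 664.9 CPM in control, 603.4 and 550.9 in CAF-1 OFF and 482.8 and 455.7 in HOXA9 OFF. Its log2 fold change was −0.46 ± 0.10 in HOXA9 OFF (edgeR adjusted p = 0.0157, under 1.5-fold), and CAF-1 OFF gave −0.16 ± 0.10 (edgeR adjusted p = 0.627). Rbbp7 was at 319.3 and 311.4 CPM in control, 327.9 and 305.4 in CAF-1 OFF and 247.4 and 241.4 in HOXA9 OFF, with log2 fold changes of −0.37 ± 0.09 (edgeR adjusted p = 0.0267) in HOXA9 OFF and 0.01 ± 0.09 in CAF-1 OFF. Both genes, like Ezh2, were short of a call in HOXA9 OFF. Exons of Rbbp4 and Rbbp7 overlap antisense genes in part (8.94% with Sync and 9.1% with a lincRNA for Rbbp4, 5.98% with Txlng for Rbbp7).

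**Figure D4:**
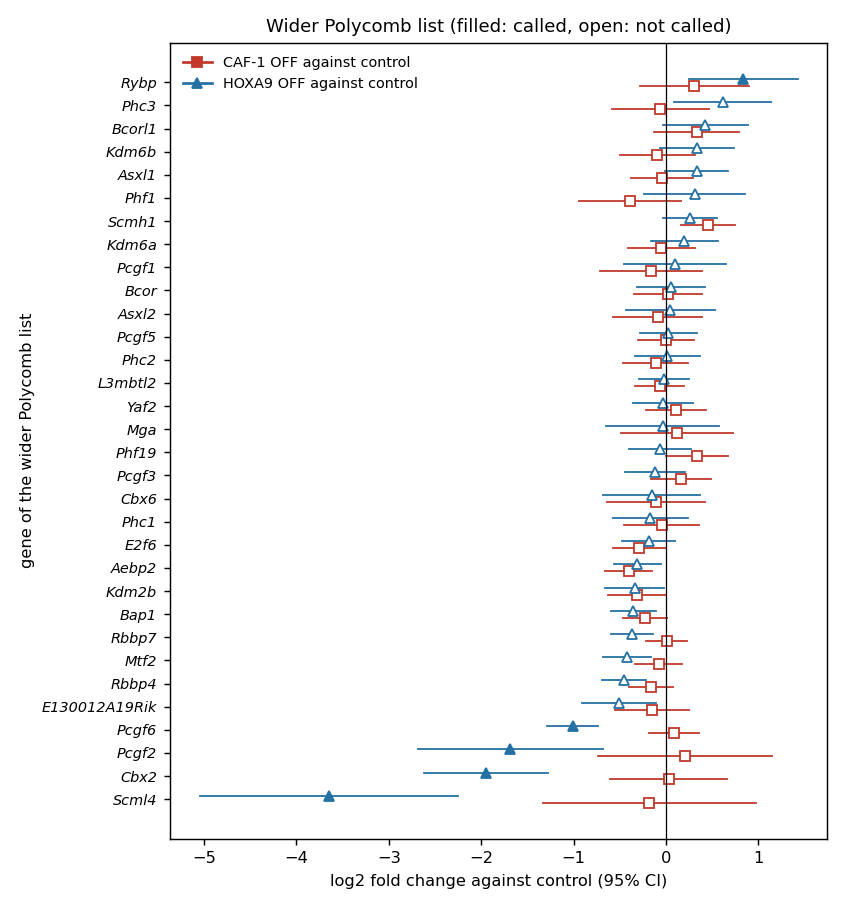
Log2 fold change against control (symbol) with its 95% confidence interval (line) for genes of the wider Polycomb list, for CAF-1 OFF (squares) and HOXA9 OFF (triangles), ordered by the HOXA9 OFF value. Filled symbols mark called genes, which are Scml4, Cbx2, Pcgf2, Pcgf6 and Rybp in HOXA9 OFF, and no CAF-1 OFF symbol is filled.

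Classical Polycomb targets were mostly silent in all groups. Of 25 target genes found in the counts, 16 had 0 counts in all 6 libraries, which allows up to 0.119 to 0.179 CPM in a library, and 3 passed the filter. Cdkn2a, the tumour suppressor locus that Bmi1 is known to repress, was at 249 and 263 CPM in control, 282 and 215.3 in CAF-1 OFF and 238 and 235.2 in HOXA9 OFF. Its log2 fold change in HOXA9 OFF, where Bmi1 fell, was −0.11 ± 0.14 (edgeR adjusted p = 0.579, 95% interval −0.44 to 0.22). Its neighbour Cdkn2b had 1 to 5 counts in each library. Wnt6, a secreted signalling protein, was at 2.83 and 2.84 CPM in control, 5.51 and 3.54 in CAF-1 OFF and 3.52 and 2.73 in HOXA9 OFF, and was not called.

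Since Ezh2 is typically highest in dividing cells, 16 proliferation genes were read beside it. In HOXA9 OFF against control 0 of 16 were called by edgeR, beside 22.0% of all genes, with 4 of 16 at an unadjusted p under 0.05, beside 5216 of 12460, and 13 of 16 were below 0 with a median log2 fold change of −0.12. The 1 gene that the DESeq2 Wald and edgeR exact tests each called was Mki67, a marker of cycling cells (named after its values were seen), which went the other way. It was at 323.1 and 239 CPM in control, 233.7 and 390.8 in CAF-1 OFF and 493.6 and 446.3 in HOXA9 OFF, 1.67-fold above control there (edgeR adjusted p = 0.0673). Mcm7, a subunit of the replicative helicase, was at 645.9 and 631.9 CPM in control, 598.6 and 601.4 in CAF-1 OFF and 461.5 and 453.4 in HOXA9 OFF, a log2 fold change of −0.48 ± 0.09 in HOXA9 OFF (edgeR adjusted p = 0.0085) beside −0.42 for Ezh2. Mcm2 of the same helicase (named after its values were seen) differed by −0.37 ± 0.09 (edgeR adjusted p = 0.0232), Mcm3 by −0.20 ± 0.10 (edgeR adjusted p = 0.157), and for Top2a, the topoisomerase of dividing cells, the groups overlapped (edgeR adjusted p = 0.99). Mcm6 varied within groups, from 1148 to 697.8 CPM in control. CAF-1 OFF against control had 0 of 16 called by edgeR or the other 2 tests, beside 0.0321% of all genes by edgeR, with 1 of 16 at an unadjusted p under 0.05. Between the 2 conditions 1 of 16 was called, beside 22.1% of all genes, Rrm2 (named after its values were seen), higher in CAF-1 OFF by 0.67 ± 0.10 on the log2 scale (edgeR adjusted p = 0.00447). Rrm2 was at 386.6 and 383.4 CPM in control, 541 and 584 in CAF-1 OFF and 369.1 and 337.1 in HOXA9 OFF. It was also the 1 gene of 16 at an unadjusted p under 0.05 in CAF-1 OFF against control (log2 fold change 0.55, edgeR adjusted p = 0.153). What part cell division has in the Ezh2 values was not tested.

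The genes whose log2 CPM ran most like each of the 3 genes over the 6 libraries were sought among 9614 genes with a mean of at least 5 CPM. These correlations are a description over 6 libraries that fall into 3 groups. For Bmi1 they were Rsl1d1 (Pearson r = 0.999), Ppan (0.999) and Oxnad1 (0.999), and Rsl1d1, a nucleolar protein gene, stood at 383 and 390.1 CPM in control, 346.3 and 354.1 in CAF-1 OFF and 222.4 and 235.8 in HOXA9 OFF. For Ezh2 they were Banp (0.993), BC017612 (0.988) and Sgsm2 (0.981). For Ezh1 they were Phf1 (0.994), Dnm2 (0.993) and Zfp335 (0.992). Phf1, an accessory subunit of PRC2, was at 7.19 and 6.73 CPM in control, 4.78 and 5.87 in CAF-1 OFF and 7.67 and 9.64 in HOXA9 OFF.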

How the data were processed

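RNA-seq libraries were made with a strand-marking kit from iGMPs, 2 per group. Reads were mapped by the authors to mm9 with STAR, and HTSeq-count gave the deposited raw counts for each gene symbol, which were not normalized. Which annotation, strand setting and overlap mode were used for counting is not given in the sources used here. Reads with several alignments did not enter the counts, which lowers the values of genes that have near-identical copies.

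Counts of genes kept by filterByExpr were scaled by TMM (factors 0.954 to 1.03) and fitted in R 4.3.3 with edgeR 4.0.16 (limma 3.58.1) in 1 quasi-likelihood model of all 6 libraries, without a replicate block. Calls required a 1.5-fold difference or more with a Benjamini-Hochberg FDR under 0.05 over all 12460 genes tested, the cutoffs of the study. The model was tested on simulated data. CPM used TMM-scaled library sizes. Standard errors (SE) came from the quasi-likelihood statistic, and SD is over 2 libraries. Libraries of a group differed by more than sampling noise (chi-square per degree of freedom 21.4 to 28.9), so none was a copy of another, which does not show that they came from separate cultures. Depth ranged from 16773560 to 25170898 gene counts. Limits from 3 counts cover counting error only, as PCR reads are not independent molecules.

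Groups and replicate numbers came from the sample titles. Alternatives were DESeq2 1.42.0 size factors and its Wald test, library size alone, the exact test of edgeR, no filter, a mean CPM of at least 5, the 4 libraries compared, a replicate block, other cutoffs and each library left out. The members and lists were chosen with earlier results of these data known. Named are the 10 genes, called genes of the wider list with Rbbp4 and Rbbp7, up to 4 target and 4 proliferation genes by mean CPM, Cdkn2a, Cdkn2b, Chaf1a, Chaf1b and the 3 genes most like Ezh2, Ezh1 and Bmi1.

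Some genes of these lists are not reported here. Gene positions and exon lengths are from GENCODE on NCBIM37, and promoter windows from RefSeq on GRCm38.p6, where all 10 genes matched. Exon length is that of all annotated isoforms together.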

Additional observations from a re-analysis of the deposited data

How the results depend on the processing

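Bmi1 and Ezh1 kept their direction in every fit of their called comparison. The count of 0 called Polycomb genes in CAF-1 OFF against control was also found in 17 of 17 other settings, but 5 of these did not call the targeted gene Chaf1b either. Many of the others also called few genes, such as 4 with DESeq2 size factors, 5 with library size alone and 9 with the 4 libraries compared. With so few calls, 0 of 10 could hardly have come out otherwise, so these settings say nothing about stability. More genes were called by the DESeq2 Wald test (192), the exact test (236), no filter (378) and the crossed block described below (71), each with 0 of 10. Bmi1 was called lower in HOXA9 OFF in 14 of 14 fits other than stricter cutoffs. At 2-fold and an FDR under 0.01, calls were 0 of 10 in HOXA9 OFF against control, beside 987 of 12460 genes. They were 0 of 10 in CAF-1 OFF against HOXA9 OFF, beside 948 of 12460, and 3 of the wider list in HOXA9 OFF against control. With no fold minimum these 3 counts were 2, 2 and 9, and 3716 and 3770 of all genes were called in the 2 comparisons. With library size alone, 2 of 10 were called in CAF-1 OFF against HOXA9 OFF (Ezh1 and Bmi1). Leaving out 1 library at a time gave 0 to 1 of 10 in CAF-1 OFF against HOXA9 OFF and 3 to 6 of the wider list in HOXA9 OFF against control, where a lone library was assumed to vary like the other groups. The causes were not tested.

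The labels share replicate numbers, but nothing links same-numbered libraries, and the correlations of their deviations were −0.18, 0.46 and 0.03 in the 3 comparisons. With the replicate block, 0, 1 and 1 of 10 and 0, 4 and 4 of the wider list were called, with Rybp lost, and all calls numbered 2, 2680 and 2684 in place of 4, 2740 and 2755. A block with the CAF-1 OFF numbers crossed, added after the data were seen, gave 71 calls against control. Over all genes in CAF-1 OFF against control, calls numbered 192 with DESeq2, 236 with the exact test and 378 with no filter. Depth limits Cbx7 most, which the filter at a mean of 5 CPM removed.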
